A study of Mus musculus with 6 samples.

Results

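Open chromatin was described at 9 genes that control barrier differentiation of the epidermis: the grainyhead-like genes Grhl1, Grhl2 and Grhl3, the Krüppel-like genes Klf4 and Klf5, the Ovo-like genes Ovol1 and Ovol2, the zinc finger gene Zfp750 and the homeobox gene Hopx. A region belonged to a gene when the gene's span was the nearest protein-coding span within 50 kb on mm10. By that rule 86 of 75738 consensus regions, or of 62783 within 50 kb of any protein-coding gene, were members. Consensus regions are the merged overlapping peaks of 6 ATAC-seq peak lists, where a transposase cuts and tags accessible DNA. The libraries came from back skin of C57BL/6 mice aged 60 days that carried a tamoxifen-inducible Cre under the Tnc gene (TNC-CREER) and a tdTomato reporter. Tamoxifen, 100 µg per g, was given to all groups on postnatal days 51 and 52, so every population carries the Cre driver and the drug. All 3 sorts required EPCAM and α6-integrin, an adhesion protein of basal cells. Among cells with SCA1, those with tdTomato were taken as touch dome, the keratinocyte patches that hold Merkel cells, and those without it as interfollicular epidermis (IFE). Cells lacking both SCA1 and tdTomato were taken as hair follicle (HF). The touch dome gate therefore rests on where and when the Tnc promoter drove Cre. Each population had 2 libraries of 50000 sorted cells, and the labels do not say whether these came from separate animals, so their spread may be technical.

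The epidermis renews from basal keratinocytes that leave the basement membrane, stop dividing and build a cornified barrier. Grainyhead-like factors, named after a fly gene for cuticle formation, activate junction and crosslinking genes, and Grhl3 is required for barrier formation in the mouse embryo. Klf4 drives late differentiation, Klf5 acts in epithelial proliferation and differentiation, the Ovo-like repressors hold cells in an epithelial state, and Zfp750 is a p63 target of terminal differentiation. Hopx encodes a homeodomain protein that does not bind DNA and marks hair follicle stem cells as well as differentiating epidermis.

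The libraries held 50153 to 59250 peaks each, the most in touch dome replicate 2. The lists carry no read counts, so depth could not be read from them, and a closed region is one where no peak was called. Follicle marker genes had 81 regions, of which touch dome libraries had peaks at 50 and 61, IFE libraries at 44 and 43 and HF libraries at 68 and 71, with HF highest. Touch dome marker genes had 71 regions, 50 and 54 of them open in touch dome, 35 and 34 in IFE and 60 and 53 in HF. Over this list the touch dome libraries thus stood above IFE, and overlapped HF. Tnc, whose promoter drove the Cre of the sort, had 17 and 17 of 17 regions open in touch dome and 11 and 11 in IFE. Cadm1 had 21 and 24 of 37 in touch dome and 15 and 14 in IFE, and Ptch1 and Hhip also stood above IFE. Krt17 (2 and 2 in touch dome, 3 and 2 in IFE) and Gli1 (2 in every library) did not. Against HF, Tnc alone of the list was higher in touch dome, with 13 and 12 regions open in HF. In HF, Cadm1 had 31 and 25, Hhip 6 and 6 (3 and 4 in touch dome) and Krt17 3 and 3. Ptch1 had 5 and 5 in HF, as in touch dome.

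Start sites of 5 of the 9 genes were matched in RefSeq (GRCm38.p6, the assembly of mm10): Grhl1, Grhl3, Klf4, Ovol2 and Hopx. Each window runs from 250 bases before a start site to 50 bases after it. The windows below show how peaks sat on promoters, with capitals for bases under a peak in all 6 libraries. Grhl1 has 2 listed starts, the first at chr12:24572037-24572336 (plus strand) and the other at chr12:24580469-24580768 (plus strand).
Grhl1 first start: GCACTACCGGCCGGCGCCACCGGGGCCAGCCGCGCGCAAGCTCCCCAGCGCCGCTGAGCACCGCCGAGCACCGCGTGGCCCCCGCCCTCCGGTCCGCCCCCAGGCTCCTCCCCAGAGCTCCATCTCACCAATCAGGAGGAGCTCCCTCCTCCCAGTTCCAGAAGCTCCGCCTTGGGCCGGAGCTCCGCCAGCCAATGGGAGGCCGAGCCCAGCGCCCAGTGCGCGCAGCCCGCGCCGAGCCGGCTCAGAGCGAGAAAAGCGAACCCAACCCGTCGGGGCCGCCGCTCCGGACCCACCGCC
Grhl1 other start: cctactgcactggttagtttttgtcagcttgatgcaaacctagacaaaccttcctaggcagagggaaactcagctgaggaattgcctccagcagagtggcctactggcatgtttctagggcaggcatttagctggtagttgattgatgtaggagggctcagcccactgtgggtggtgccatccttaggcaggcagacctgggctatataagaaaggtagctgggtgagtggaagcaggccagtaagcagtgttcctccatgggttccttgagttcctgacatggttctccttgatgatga
The first Grhl1 window lay wholly under a peak in every library, and no library had a peak at the other. The first held 35 CpG dinucleotides and the other 0, where the median over all 32851 RefSeq windows was 7. Grhl3 (chr4:135573583-135573882, minus strand) and Klf4 (chr4:55532426-55532725, minus strand) differed in how far the peak reached.
Grhl3: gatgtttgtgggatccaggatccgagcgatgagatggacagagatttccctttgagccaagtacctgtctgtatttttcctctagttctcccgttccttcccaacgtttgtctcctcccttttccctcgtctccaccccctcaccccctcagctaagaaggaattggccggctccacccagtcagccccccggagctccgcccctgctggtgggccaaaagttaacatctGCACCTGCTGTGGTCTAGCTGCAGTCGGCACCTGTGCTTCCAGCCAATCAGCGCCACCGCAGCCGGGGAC
Klf4: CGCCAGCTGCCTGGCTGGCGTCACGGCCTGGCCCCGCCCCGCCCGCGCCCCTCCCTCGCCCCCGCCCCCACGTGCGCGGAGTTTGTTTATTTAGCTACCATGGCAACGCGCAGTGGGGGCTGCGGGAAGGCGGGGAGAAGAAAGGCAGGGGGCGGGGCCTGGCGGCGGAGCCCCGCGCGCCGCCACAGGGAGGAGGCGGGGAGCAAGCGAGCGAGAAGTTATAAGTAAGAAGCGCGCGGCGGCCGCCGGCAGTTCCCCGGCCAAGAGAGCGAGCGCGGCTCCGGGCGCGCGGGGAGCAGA
At Grhl3 the peaks covered the start site and ended within the window, with 162 and 116 of 300 bases covered in touch dome, 149 and 157 in IFE and 126 and 70 in HF. The Klf4 window, with 40 CpG dinucleotides against 12 at Grhl3, was covered whole in every library. So were the Ovol2 window (chr2:144331313-144331612, minus strand) and both windows of Hopx (chr5:77115074-77115373 and chr5:77095218-77095517, minus strand). These held 25, 8 and 21 CpG dinucleotides in that order, so a window with fewer than Grhl3 was also covered whole. A further start within the Hopx regions, that of the noncoding gene Chaer1 (chr5:77140256-77140555, minus strand), is shown because it was covered whole in 3 libraries and not at all in 1. The start of the noncoding gene Gm15831, in another Hopx region, was partly covered, with 89 and 155 bases in touch dome, 103 and 0 in IFE and 0 and 32 in HF. No base of it was under a peak in all 6, and here capitals mark the motif matches given below it.
Chaer1: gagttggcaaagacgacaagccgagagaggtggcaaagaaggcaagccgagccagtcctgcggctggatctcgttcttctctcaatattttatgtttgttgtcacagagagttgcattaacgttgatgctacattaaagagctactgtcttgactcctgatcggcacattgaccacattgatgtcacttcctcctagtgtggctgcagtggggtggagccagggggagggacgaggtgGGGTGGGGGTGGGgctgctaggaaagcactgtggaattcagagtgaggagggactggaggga
Peaks covered 256 and 300 bases of the Chaer1 window in touch dome, 300 and 300 in IFE, and 0 and 282 in HF, so HF replicate 1 stood apart from the other 5 libraries. Windows were searched on both strands for 4 motifs. The grainyhead motif AACCNGTT was in 2.09% of all RefSeq windows, and the Krüppel-like motif CCCACCC was in 17.5%. The Ovo motif CCGTTA was in 2.76%, and the AP-1 motif TGANTCA was in 7.81%. None of the 4 was in a window of the matched member genes. The Chaer1 window held 2 overlapping matches of the Krüppel-like motif, on the strand opposite the one printed.

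Summed over the 9 genes, IFE and touch dome libraries had peaks at more regions than HF libraries, mostly at Grhl3 and Klf5. Mean IFE minus HF was 5.5 regions at Grhl3, 4.5 at Klf5, 1 at Grhl2 and -0.5 at Hopx. It was 0 at Grhl1, Klf4, Ovol1, Ovol2 and Zfp750. Touch dome minus HF was 4 at Grhl3, 3 at Klf5, 2 at Grhl2, 1 at Klf4, 0.5 at Grhl1 and -1 at Hopx, and 0 elsewhere. Peaks were present at 67 and 74 of the 86 regions in touch dome, 74 and 69 in IFE and 61 and 61 in HF, so no HF library reached the lowest touch dome or IFE library. Means were 70.5 ± 4.95 (SD, n = 2) in touch dome, 71.5 ± 3.54 (SD, n = 2) in IFE and 61 ± 0 (SD, n = 2) in HF. Summed peak length over the 86 regions was 73349 and 84411 bp in touch dome, 86805 and 81460 bp in IFE and 76668 and 70854 bp in HF. By that measure touch dome overlapped both IFE and HF. IFE exceeded HF by 10.5 regions and touch dome exceeded HF by 9.50, both at p = 0.333 (two-sided exact permutation test), the smallest that 2 against 2 libraries allow. With only the wider 50% of each library's peaks, these differences became 5.5 and 1 regions of 51, and touch dome and HF then overlapped (exact permutation p = 1). Where a peak had to cover 50% of a region, touch dome exceeded HF by 5.5, again with overlap. Touch dome minus IFE was -1 region (two-sided exact permutation p = 1), less than the spread within either. It became -6 with equal numbers of the widest peaks and -4.5 with the wider 50%, and both IFE libraries were then above both touch dome libraries (exact permutation p = 0.333). Over all 62783 regions near genes the order was another: 66.5% and 78.4% were open in touch dome, 71.2% and 68.7% in IFE, and 72.4% and 74.8% in HF.

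**Figure D1:**
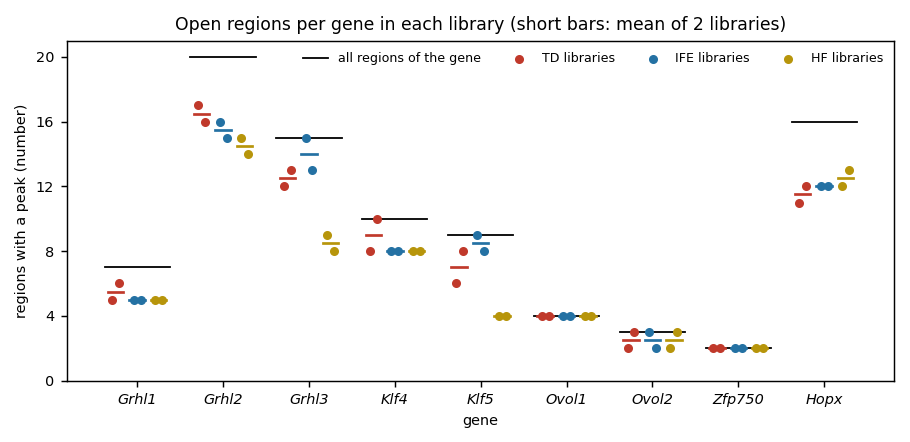
Number of regions with a peak (vertical axis) at each of the 9 genes, 1 point per library, coloured by population, with short bars for the mean of 2 libraries and a black line for all regions of the gene. Klf5 has 4 and 4 open regions in HF against 6 to 9 in the other libraries, Grhl3 has 9 and 8 against 12 to 15, and the 4 Ovol1 and 2 Zfp750 regions are open in all libraries.

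The 86 regions held 14 with a peak in both IFE libraries and neither HF library (16.3%, where 9.91% of all regions near genes met that rule) and 5 with the reverse (5.81%, background 12.8%). They held 12 open in touch dome and not HF (14%, background 8.02%) and 3 with the reverse (3.49%, background 7.26%). Touch dome against IFE gave 3 (3.49%, background 4.48%) and 0 (background 1.82%). The 14 lay at Klf5 (4), Grhl3 (4), Grhl2 (3), Grhl1, Klf4 and Hopx (1 each), so Klf5 and Grhl3 held 8 of the 14 with 24 of the 86 regions. Of the 12 touch dome regions, 11 were open in both IFE libraries too, at Klf5 (4), Grhl2 (3), Grhl3 (3) and Klf4 (1). With the wider 50% of each library's peaks, IFE against HF gave 9 and 4 the reverse, and touch dome against HF gave 5 and 5 the reverse, an even split. The 5 HF regions against IFE became 8 without HF replicate 2. The 3 HF regions against touch dome became 5 without HF replicate 1, 6 without HF replicate 2 and 6 without touch dome replicate 2. The 0 IFE regions against touch dome became 7 without touch dome replicate 2 and 3 without IFE replicate 2. Marker lists of other cell types differed between populations in either direction. Of the suprabasal markers, which mark differentiating keratinocytes, 4 of 5 had regions (Flg had none), and 23 and 24 of their 26 regions were open in touch dome, 24 and 23 in IFE and 17 and 18 in HF. Of those regions 7 were open in IFE and not HF, 6 of them at Tgm3 and 1 at Krt1. The reverse held at 2, 1 at Tgm3 and 1 at Krt10, and Ivl had 0 either way. Krt10 was highest in HF, with 3 of 4 regions open in each touch dome and IFE library and 4 and 4 in HF. The 2 interfollicular markers were genes of the sort itself: Ly6a, which encodes SCA1, had 4 and 4 of 5 regions open in touch dome, 5 and 5 in IFE and 2 and 2 in HF. Epcam, required in all sorts, had 6 and 7 of 7, 7 and 6, and 7 and 7. The 5 basal markers had 69 regions, with 46 and 51, 57 and 52, and 43 and 47 open, so touch dome and HF overlapped. Among them Itga6, which encodes the α6-integrin required in all sorts, had 14 and 14 of 23, 20 and 15, and 9 and 9. Trp63 had 23 and 26 of 33, 27 and 26, and 22 and 27, so its populations overlapped, and Krt14 was highest in HF. Of the immune markers 3 of 4 had a region (Cd207 had none), and 3 and 3, 2 and 2, and 1 and 1 of the 3 regions were open. Of 13 endothelial regions, all at Pecam1 (Cdh5 and Kdr had none), 10 and 11, 13 and 11, and 11 and 11 were open, so the populations overlapped. The fibroblast, melanocyte and Merkel cell lists were highest in HF. Of 14 fibroblast regions (Lum had none), 9 and 11 were open in touch dome, 5 and 3 in IFE and 13 and 12 in HF. The 1 region of Dcn among them was open in touch dome only. Of 24 melanocyte regions (Tyr and Kit had none), 18 and 21, 13 and 14, and 22 and 22 were open. Mitf held 20 of the 24, with 14 and 17, 10 and 11, and 18 and 18 open. Of 14 Merkel cell regions, 5 and 9, 8 and 6, and 10 and 12 were open. Piezo2 held 9 of the 14, with 3 and 5, 3 and 3, and 7 and 9 open, and no other Merkel marker was highest in HF. Atoh1 and Krt20, with 1 region each, had no HF peak. Isl1 and Krt8 were open in every library, and Krt18 lacked a peak in touch dome replicate 1 alone. The part of these cell types in the counts at the 9 genes was not tested. SCA1, which separated HF from the other gates, cannot be told apart from the follicle origin of the cells.

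**Figure D2:**
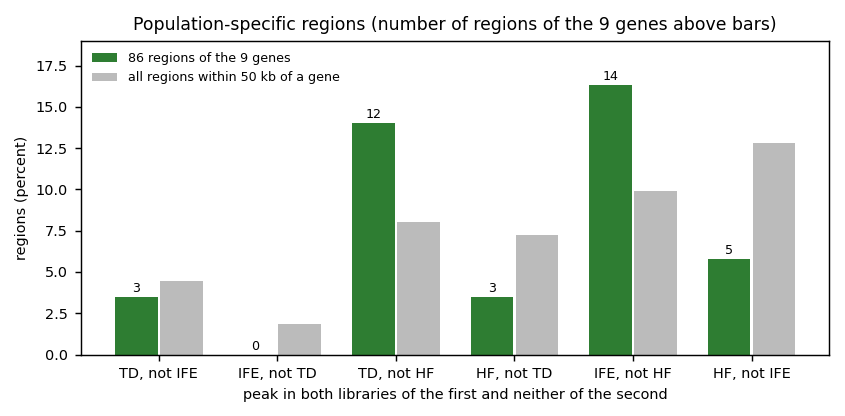
Percent of regions with a peak in both libraries of the first-named population and neither of the second (vertical axis) for each ordered pair, green for the 86 regions of the 9 genes and grey for the regions within 50 kb of a protein-coding gene, with the number of regions of the 9 genes above the bars. The green bars reach 16.3% for IFE against HF and 14% for touch dome against HF, and 5.81% and 3.49% in the reverse directions.

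Peaks in all 6 libraries covered 47 of the 86 regions (54.7%, background 48.2%). All 10 regions within 1 kb of a gene end were among them (background for such regions 82.5%), whereas 37 of the 76 further away were (48.7%, background 38.8%). No differing region therefore lay at a gene end: of the 11 regions open in touch dome and IFE and closed in HF, 7 were inside a gene span and 4 outside. The 47 shared regions had a median width of 1588 bp, and the 11 had a median of 812 bp. Over all regions near genes the same 2 classes had medians of 1298 and 876 bp, so the shared class was wider there too. By population, 11 regions were open in all touch dome and IFE libraries and closed in HF (12.8%, background 6.31%). In touch dome and HF but not IFE were 2 (2.33%, background 3.28%), and in IFE and HF but not touch dome 0 (background 0.336%). In HF alone were 3 (3.49%, background 6.22%), in touch dome alone 1 (1.16%, background 0.967%) and in IFE alone 0 (background 1.22%). In the other 22, the libraries of at least 1 population disagreed (25.6%, background 33.5%).

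**Figure D3:**
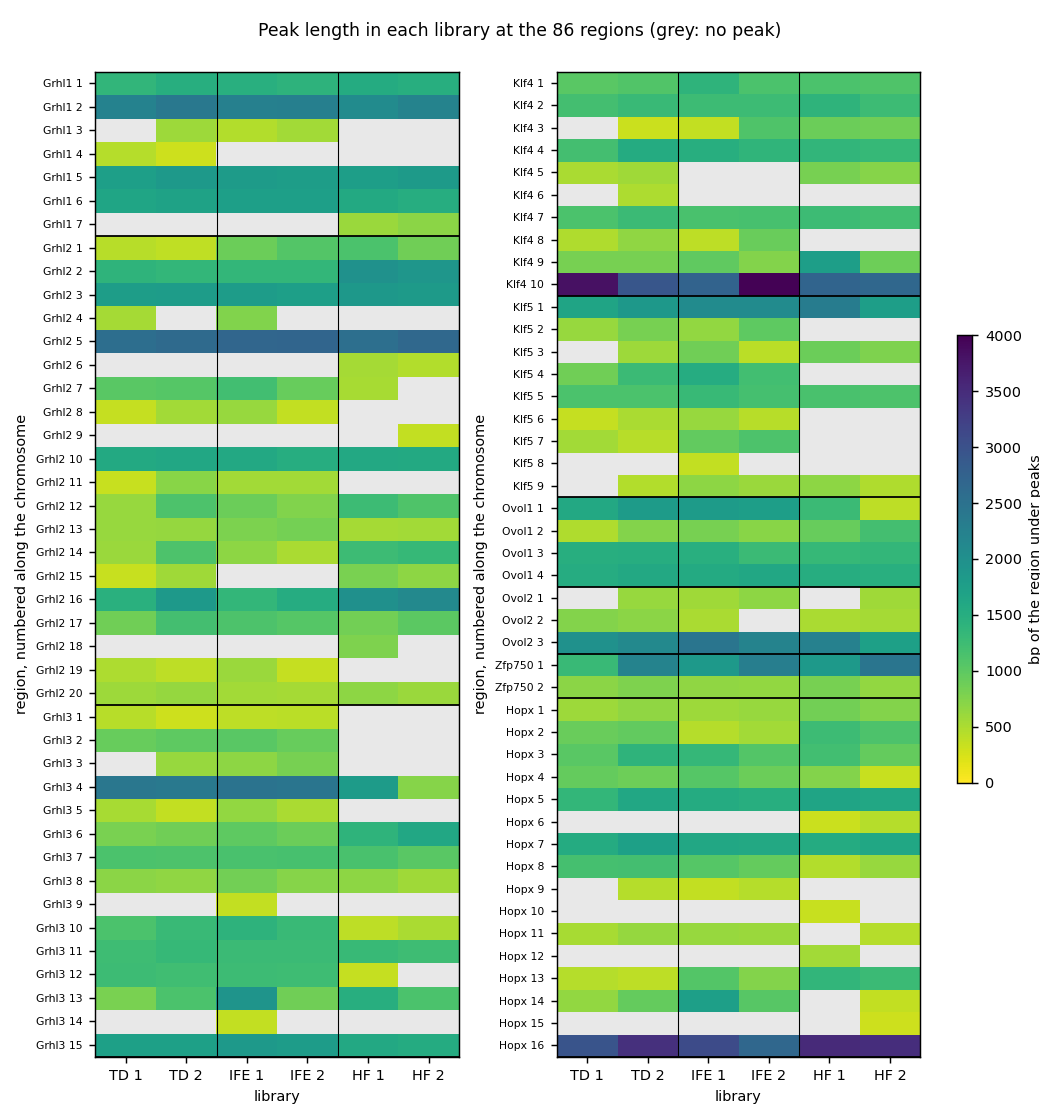
Base pairs under peaks in each library (colour, columns) at the 86 regions (rows, numbered along the chromosome within each gene), with grey where a library had no peak. Grey blocks in the HF columns stand, among others, at Grhl3 regions 1, 2, 3 and 5 and Klf5 regions 2, 4, 6 and 7, while Ovol1 and Zfp750 show no grey.

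Grhl3, the grainyhead-like gene of barrier formation and wound closure, had fewer open regions in both HF libraries than in any other. Its span is chr4:135541887-135573632, transcribed toward lower coordinates, and 15 regions belonged to it. Open regions numbered 12 and 13 in touch dome (12.5 ± 0.707, SD, n = 2), 15 and 13 in IFE (14 ± 1.41, SD, n = 2) and 9 and 8 in HF (8.50 ± 0.707, SD, n = 2). The HF libraries lay below all 4 others, and touch dome and IFE overlapped at 13. Both comparisons with HF gave p = 0.333 in the two-sided exact permutation test, the smallest possible. Closed in both HF libraries and open in both IFE libraries were chr4:135539950-135540471, which lies 1415 bp past the 3′ end, and chr4:135544670-135545759, chr4:135547222-135548077 and chr4:135567267-135567910 inside it. Touch dome had peaks at these 4 in both libraries, except that replicate 1 had none at chr4:135547222-135548077. The 4 became 6 without IFE replicate 2, and under the other changes of processing they ranged from 3 to 6.

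Further Grhl3 regions were open in HF but with shorter peaks. At chr4:135590529-135591958, 16896 bp upstream of the gene, peaks spanned 1135 and 1291 bp in touch dome, 1420 and 1296 bp in IFE and 400 and 502 bp in HF, a ratio of 3.01 between the IFE and HF means. The intragenic region chr4:135563571-135566042 had 2416 and 2378 bp, 2472 and 2451 bp and 1801 and 719 bp under peaks in the same order. The 1801 bp of HF replicate 1 were summed over separate peaks, at 7.736 to 8.688 and 9.067 to 9.914 kb from the start site. At chr4:135599019-135600295 the values were 1262 and 1229 bp, 1257 and 1247 bp and 347 and 0 bp, so HF replicate 2 had no peak. The intragenic region chr4:135569202-135570886 ran the other way. It spanned 1404 and 1606 bp in HF, 812 and 871 bp in touch dome and 991 and 902 bp in IFE. Both HF libraries were thus highest there and lowest at the 3 regions before it. The region at the start site, chr4:135572563-135573744, had peaks of similar length, with 1137 and 1123 bp, 1149 and 1157 bp and 1146 and 1029 bp in touch dome, IFE and HF. Also open in all 6 libraries were chr4:135575148-135576000, chr4:135597263-135598612, chr4:135606299-135608276 and chr4:135622791-135624725. The regions chr4:135585529-135585894 and chr4:135617987-135618353 had a peak in IFE replicate 1 alone. Summed over the 15 regions, peaks covered 13571 ± 642 bp in touch dome, 15518 ± 1604 bp in IFE and 9243 ± 1281 bp in HF (SD, n = 2), again with both HF libraries lowest.

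**Figure D4:**
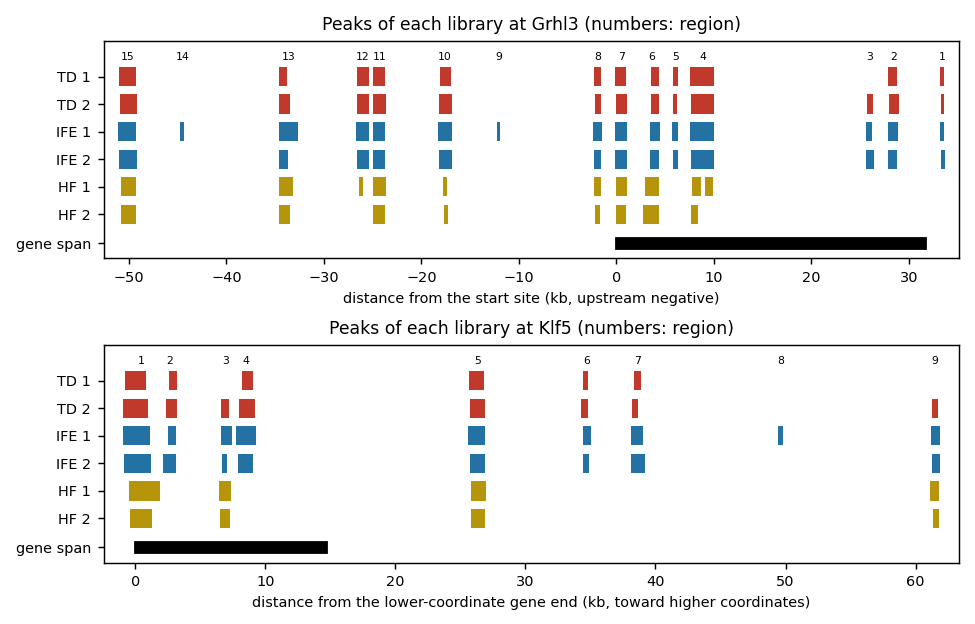
Peaks of each library (coloured bars, rows) along Grhl3, by distance from its start site in kb, and along Klf5, by distance from its lower-coordinate gene end in kb, with the gene span in black and region numbers on top. Both HF rows lack bars at Grhl3 regions 1, 2, 3, 5, 9 and 14 and at Klf5 regions 2, 4, 6, 7 and 8. Grhl3 regions 9 and 14 and Klf5 region 8 have a bar in IFE replicate 1 alone, and HF replicate 2 also lacks one at Grhl3 region 12. The regions at the start of Grhl3 and the lower end of Klf5 have bars in all 6 rows.

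Grhl2, which activates E-cadherin and claudin genes in epithelia, had the most regions, 20 around chr15:37232821-37363569. Open were 17 and 16 in touch dome, 16 and 15 in IFE and 15 and 14 in HF, a descending order whose neighbours overlapped. Touch dome and HF did not overlap in these counts (two-sided exact permutation p = 0.333, the smallest possible). Summed peak length was 16578 ± 1438 bp in touch dome, 16611 ± 1143 bp in IFE and 17677 ± 915 bp in HF (SD, n = 2). The mean was thus highest in HF, and the libraries of all populations overlapped. Regions chr15:37244127-37244938, chr15:37275212-37275983 and chr15:37324339-37324946, all inside the gene, were open in touch dome and IFE and closed in HF. Region chr15:37240404-37240985, also inside, was open in HF alone, and chr15:37300014-37300815 in touch dome and HF but not IFE. Grhl2 thus held sites on either side of the follicle difference. With the wider 50% of peaks, it had 1 region open in touch dome and not HF and 1 the reverse. For IFE against HF it then had 1 and 2 the reverse. HF replicate 1 had a peak of 523 bp at chr15:37242461-37243671, where touch dome had 1018 and 1060 bp and IFE 1206 and 935 bp, and HF replicate 2 had none. Single libraries had peaks at chr15:37246821-37247187 (HF replicate 2) and chr15:37317997-37318769 (HF replicate 1), and replicate 1 of touch dome and of IFE at chr15:37201341-37202095.

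The other 11 Grhl2 regions were open throughout. They were chr15:37232194-37234955 at the lower end of the gene, chr15:37183072-37184270, chr15:37191426-37193397 and chr15:37197913-37199785 outside it, and chr15:37267692-37269394, chr15:37281623-37282904, chr15:37288248-37289123, chr15:37292335-37293727, chr15:37303879-37306057, chr15:37312549-37313752 and chr15:37328278-37329061 within. HF peaks were the longest at several of them. At chr15:37292335-37293727 they spanned 1258 and 1323 bp, against 684 and 505 bp in IFE and 608 and 1116 bp in touch dome. At chr15:37191426-37193397 they spanned 1972 and 1892 bp, against 1354 and 1353 bp in IFE and 1397 and 1359 bp in touch dome. At both, the HF libraries lay above all others.

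Grhl1, a grainyhead-like regulator of desmosomal cadherins, had 7 regions around chr12:24572232-24617391 and nearly equal numbers open, 5 and 6 in touch dome, 5 and 5 in IFE and 5 and 5 in HF. These equal counts came from different regions. chr12:24587336-24587782 was the sole region of the 86 open in both touch dome libraries and in neither IFE nor HF library (1.16%, background 0.967%), with peaks of 447 and 312 bp. That call was lost with the wider 50% of peaks and when every library kept the same number of its widest peaks. Under both settings Grhl1 had 0 regions open in touch dome and not IFE. chr12:24606015-24606702 was open in HF alone, with 604 and 688 bp. chr12:24574643-24575301, beyond the first start, had 462 and 557 bp in IFE, 0 and 593 bp in touch dome and no peak in HF. The first start lay in chr12:24571757-24574156, with peaks of 2070 to 2400 bp in the 6 libraries. That region and chr12:24565277-24566956, chr12:24591921-24593954 and chr12:24599424-24601229 were open in every library.

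Klf5, a Krüppel-like factor of epithelial progenitors, had fewer open regions in both HF libraries than in any touch dome or IFE library. Around its span, chr14:99298691-99313412, lay 9 regions, of which 6 and 8 were open in touch dome (7 ± 1.41, SD, n = 2), 9 and 8 in IFE (8.50 ± 0.707, SD, n = 2) and 4 and 4 in HF. HF lay below all 4 other libraries (two-sided exact permutation p = 0.333 for each comparison, the smallest possible), and touch dome and IFE met at 8. Open in all touch dome and IFE libraries and closed in both HF libraries were chr14:99300826-99301878 and chr14:99306434-99307951 inside the gene and chr14:99332994-99333738 and chr14:99336776-99337885 beyond its higher end, 19581 and 23363 bp away. The largest of these, chr14:99306434-99307951, had peaks of 861 and 1272 bp in touch dome and 1518 and 1212 bp in IFE. At chr14:99336776-99337885 IFE peaks, at 957 and 1110 bp, were longer than touch dome peaks at 550 and 423 bp. For IFE against HF, the 4 regions became 2 with the wider 50% of peaks, 2 within 10 kb and 6 within 100 kb, and 4 or 5 when single libraries were left out. For touch dome against HF they became 0 with the wider 50% of peaks, 2 where a peak had to cover 50% of a region, 2 within 10 kb and 6 within 100 kb.

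The closed Klf5 sites alternated with sites that HF shared. chr14:99297757-99300561 at the lower gene end spanned 2328 and 1751 bp in HF, 2065 and 2077 bp in IFE and 1670 and 1868 bp in touch dome. chr14:99324307-99325656 was also open in all 6 libraries. At chr14:99305156-99306119, between 2 of the regions closed in HF, HF had 905 and 770 bp, IFE 864 and 415 bp and touch dome 0 and 583 bp. chr14:99359817-99360563 likewise lacked a peak in touch dome replicate 1 alone, and chr14:99348109-99348476 had a peak in IFE replicate 1 alone. Summed peak length was 6116 ± 1341 bp in touch dome, 8524 ± 703 bp in IFE and 4590 ± 664 bp in HF (SD, n = 2). Touch dome replicate 1, at 5168 bp, lay just above HF replicate 1 at 5059 bp. A Klf5 region just outside the window, chr14:99374522-99375642 at 61109 bp, was again open in touch dome and IFE and closed in HF. The other nearest region outside, at Klf4 (chr4:55470825-55471574, 55562 bp), was open in all 6, as were the outermost inside, chr4:135622791-135624725 at 49158 bp and chr15:37183072-37184270 at 48550 bp.

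By share of open regions over the 6 libraries, the genes most like Klf5 among 4249 others with at least 5 regions were Mipep, Ppp1r12a, Slc34a2, Plekha6 and Abcg2, at Euclidean distances of 0.0976, 0.105, 0.108, 0.127 and 0.127. These shares come from peaks called in the same 6 libraries and from 7 to 17 regions a gene. Mipep, with 17 regions, was open at 70.6% and 88.2% in touch dome, 94.1% and 94.1% in IFE and 41.2% and 47.1% in HF, where Klf5 stood at 66.7% and 88.9%, 100% and 88.9%, and 44.4% and 44.4%.

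Klf4, the Krüppel-like factor of late barrier acquisition, had 10 regions around chr4:55527137-55532475. Open were 8 and 10 in touch dome and 8 and 8 in both IFE and HF. chr4:55521813-55522768, 4368 bp beyond the 3′ end of the gene, was closed in HF, with peaks of 482 and 667 bp in touch dome and 401 and 917 bp in IFE. chr4:55499871-55500691 was closed in IFE, with 502 and 575 bp in touch dome and 821 and 724 bp in HF. Touch dome was thus open at both, and IFE and HF at 1 each. With the wider 50% of peaks, Klf4 had 0 regions open in touch dome and not IFE. It then had 0 open in touch dome and not HF and 0 open in IFE and not HF. Where a peak had to cover 50% of a region, 0 were open in IFE and not HF. chr4:55508566-55509050 had a peak in touch dome replicate 2 alone. chr4:55486514-55487608 lacked one in touch dome replicate 1 alone and ranged from 325 to 1095 bp in the other 5 libraries. The promoter region chr4:55529860-55534106, the widest of the 86 at 4247 bp, had peaks of 3815 and 2931 bp in touch dome, 2732 and 3975 bp in IFE and 2711 and 2662 bp in HF. It and chr4:55477612-55479178, chr4:55479968-55481364, chr4:55496047-55497586, chr4:55514340-55515703 and chr4:55525290-55527048 were open in all libraries.

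Ovol1, a repressor that acts as keratinocytes leave the cell cycle, had 4 regions, all with a peak in every library. chr19:5559987-5561589, which overlaps the spans of both Ovol1 (chr19:5549137-5560575) and its neighbour Ap5b1, spanned 1479 to 1603 bp. chr19:5538766-5540601, 8535 bp from the gene, spanned 1591 and 1803 bp in touch dome, 1800 and 1751 bp in IFE and 1271 and 398 bp in HF, a ratio of 2.13 between the IFE and HF means, with HF replicate 2 far below the other 5 libraries. chr19:5543530-5544732 ran the other way, with 927 and 1203 bp in HF and 822 and 715 bp in IFE. chr19:5553673-5555260 lay within 1275 to 1506 bp.

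Ovol2, which represses the mesenchymal regulator Zeb1, had 3 regions around chr2:144305175-144332080. Open were 2 and 3 in touch dome, 3 and 2 in IFE and 2 and 3 in HF, so the populations overlapped. chr2:144330102-144332759 at the start was open throughout, chr2:144299895-144300688 lacked a peak in touch dome replicate 1 and HF replicate 1, and chr2:144324297-144325037 lacked one in IFE replicate 2. Zfp750, at chr11:121510976-121519342 inside the span of Tbcd, had 2 regions, both overlapping Tbcd too. chr11:121515744-121518295 and chr11:121519046-121519937 were open in all 6 libraries, with peaks of 1295 to 2450 bp and of 643 to 826 bp. Sites outside the Zfp750 span are nearer to Tbcd by the rule and were not counted.

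Hopx had 16 regions around chr5:77086986-77115123, with 11 and 12 open in touch dome, 12 and 12 in IFE and 12 and 13 in HF. The counts overlapped between populations, while single regions differed in each direction. chr5:77112103-77112541, inside the gene, was open in HF alone, with 322 and 439 bp. chr5:77124537-77125004 had 372 and 445 bp in IFE, 0 and 452 bp in touch dome and no peak in HF. chr5:77138991-77140726, which holds the Chaer1 start, spanned 655 and 949 bp in touch dome, 1736 and 1044 bp in IFE and 0 and 366 bp in HF. chr5:77130322-77130961 lacked a peak in HF replicate 1 alone, whereas chr5:77126362-77126697 and chr5:77132707-77133264 had one in that library alone and chr5:77141347-77141652 in HF replicate 2 alone.

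Among the 9 Hopx regions open in every library, peaks were longer in HF at chr5:77080558-77081820, with 1259 and 1117 bp against 441 and 558 bp in IFE and 911 and 968 bp in touch dome. They were also longer in HF at chr5:77136623-77137983, with 1361 and 1276 bp against 1076 and 743 bp and 446 and 402 bp. They were shorter in HF at chr5:77122548-77123785, upstream of the gene, with 463 and 614 bp against 1055 and 948 bp and 1172 and 1194 bp, and at chr5:77092094-77093168, with 745 and 343 bp against 1048 and 904 bp and 946 and 876 bp. The 2 start site regions chr5:77094567-77096274 and chr5:77113977-77116094, the broad upstream region chr5:77154768-77158408 (2668 to 3517 bp), and chr5:77074726-77075579 and chr5:77082206-77083602 completed the 9. Both HF libraries were also highest at chr5:77074726-77075579 (854 and 736 bp), chr5:77094567-77096274 (1666 and 1601 bp) and chr5:77154768-77158408 (3517 and 3484 bp). The populations overlapped at chr5:77082206-77083602 and chr5:77113977-77116094.

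Peak length was compared at the 50 member regions open in all IFE and HF libraries. Both IFE libraries exceeded both HF libraries at 17 (34%, background 36.8%), and the reverse held at 15 (30%, background 22.9%). For touch dome and HF, again 50 regions, the counts were 13 (26%, background 26.5%) and 17 (34%, background 23.9%). Between touch dome and IFE, at 62 regions, they were 6 (9.68%, background 12.2%) and 17 toward IFE (27.4%, background 22.5%). The share with longer IFE than HF peaks was near the background. Grhl3 region 10 had the highest ratio of IFE to HF mean length among the 50 (3.01) and Hopx region 2 the lowest (0.420).

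**Figure D5:**
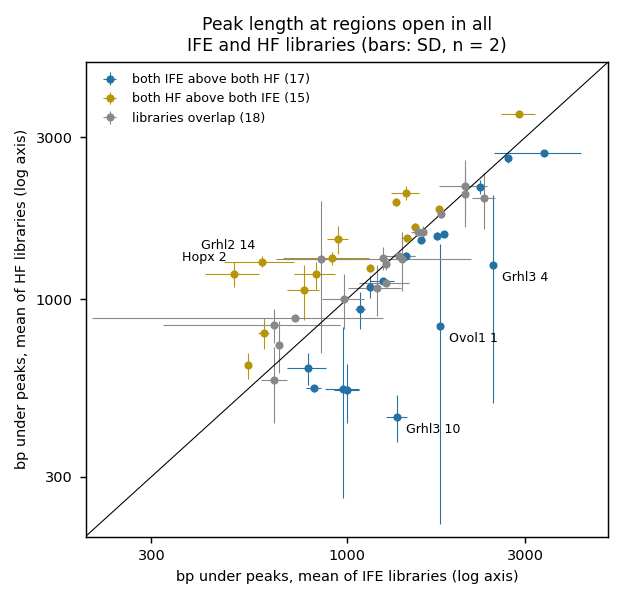
Base pairs under peaks at the 50 regions open in all IFE and HF libraries, mean of the IFE libraries (horizontal, log axis) against mean of the HF libraries (vertical, log axis), with SD bars (n = 2) and the line of equality. Blue points are the 17 regions where both IFE libraries exceed both HF libraries, ochre the 15 with the reverse and grey the other 18, and Grhl3 region 10 lies furthest below the line.

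Genes that act beside the 9 were counted in the same way. The other 15 Krüppel-like genes had 94 regions, of which 7 were open in IFE and not HF (7.45%, background 9.91%) and 8 the reverse (8.51%, background 12.8%). Klf6 and Klf9 differed most, Klf6 with 10 and 11 of 12 regions open in touch dome and 9 and 7 in HF, and Klf9 with 6 and 6 of 9 in touch dome and 8 and 8 in HF. Klf11 had 0 regions open in IFE and not HF and 1 the reverse, and Klf12 had 2 and 1. Another 23 transcription factor genes of epidermal differentiation, of which Ovol3 had no region, held 229 regions, with 20 open in IFE and not HF (8.73%, background 9.91%) and 26 the reverse (11.4%, background 12.8%), both near the background. Prdm1, which encodes a transcriptional repressor, had 1 IFE and 8 HF regions, and Barx2 had 1 and 6. Satb1 (2 and 0) and Ehf (2 and 0) stood on the IFE side, with 4 and 3 touch dome regions closed in HF and 0 the reverse.

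The 20 barrier and junction genes that such factors act on, of which Flg had no region, held 141 regions, with 20 open in IFE and not HF (14.2%, background 9.91%) and 9 the reverse (6.38%, background 12.8%). Of these genes 10 had more IFE regions, 3 had more HF regions and 6 were even. Tgm3, a transglutaminase gene, had 13 of 14 regions open in each touch dome and IFE library and 7 and 8 in HF. It alone held 6 of the 20 regions open in IFE and not HF, and 1 of the 9 with the reverse. Abca12, the lipid transporter gene of the barrier, had 13 and 14 of 15 open in touch dome, 11 and 11 in IFE and 10 and 10 in HF. Cldn1, a tight junction gene, had 3 regions open in IFE and not HF and 2 the reverse, but 1 open in touch dome and not HF and 3 the reverse, and Alox12b, a lipoxygenase gene, had 1 and 0. Touch dome against IFE gave 4 and 2 regions the reverse over this list (2.84% and 1.42%), 8 and 4 over the transcription factors (3.49% and 1.75%) and 2 and 1 over the Krüppel-like genes (2.13% and 1.06%), where the background was 4.48% and 1.82%.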

How the data were processed

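The authors deposited 1 peak list per library, 2 libraries each for touch dome, IFE and HF, with chromosome, start, end and name in 4 columns. Trim Galore 0.6.7, Bowtie2 2.4.5, SAMtools 1.9, MACS2 2.2.7.1 and mm10 are named in the submitters' processing notes. How these were set, including any shift for the transposase, was not given in the sources used here. Because peaks were called per library, presence depends on depth, which is unknown.

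Groups and replicate numbers came from the labels. Python 3.11.15 with pandas 2.3.3 and NumPy 2.4.6 merged peaks overlapping by at least 1 bp, gave each region to the nearest of 21883 RefSeq protein-coding spans (GRCm38.p6) within 50 kb, and summed the bp under peaks. Promoter sequences are RefSeq's, of the same assembly. The 3 regions that overlapped a member and another gene counted for the member. Background shares are over all 62783 regions near genes. Library values were compared by exact two-sided permutation over 6 splits. The merging and assignment were tested on simulated peaks.

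Members and lists were chosen with earlier results of these data known. All 9 members are named, with up to 4 genes per list by net specific regions (ties by symbol). The other settings changed peak cover, merging, windows, peak width and libraries. Coordinates count from 1.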

Additional observations from a re-analysis of the deposited data

How the results depend on the processing

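Of 102 recomputed values, 85 did not reverse (differences) or stayed within 1.5 times (counts), 15 moved further and 2 reversed. Touch dome minus IFE had no direction within 10 kb (0). Where a peak had to cover 50% of a region, IFE regions closed in touch dome numbered 3 and HF regions closed in touch dome 6. IFE regions closed in touch dome numbered 2 within 100 kb and 3 when each library kept the same number of its widest peaks. With the wider 50% of peaks, touch dome regions numbered 1 against IFE and 5 against HF, IFE regions 2 against touch dome and 9 against HF, and HF regions 5 against touch dome. Leaving out 1 library gave -4.5 to 2.5 for touch dome minus IFE, reversed without touch dome replicate 1 (2.5) and without IFE replicate 1 (1.5). It gave 6 to 13 for touch dome minus HF and 8 to 13 for IFE minus HF. Specific regions ranged from 3 to 4 (touch dome, not IFE), 0 to 7 (IFE, not touch dome), 13 to 16 (touch dome, not HF), 3 to 6 (HF, not touch dome), 14 to 18 (IFE, not HF) and 5 to 8 (HF, not IFE). Leaving out a library loosens the rule for its group by construction; for the other moves the cause was not tested. Counting the 3 shared regions for 1 gene, chosen after the data were seen, left 84 regions and changed no difference between populations and no count of specific regions.

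The replicate block by number gave the same differences, -1, 9.5 and 10.5 regions, with exact permutation p of 1, 0.5 and 0.5, where 0.5 is the smallest possible. Deviations of same-numbered libraries correlated at 0.0768 (touch dome and IFE), -0.0148 (touch dome and HF) and 0.0655 (IFE and HF) over 32524 regions not open in all libraries. Over the 39 such member regions they were 0.327, 0.114 and 0. Since not every pair was above 0.1 in either set, the numbers were not taken as pairing.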
